A study of Mus musculus with 30 samples.

Results

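Gene expression was compared between liver and skeletal muscle of mice that ate a standard diet (SD), on 5 arrays per tissue. The 10 arrays were all those of the series, out of 30, whose labels gave liver with SD or skeletal muscle with SD. A probe entered when its detection p-value, which sets its signal against the array's own negative control beads, fell under 0.02 for 4 or more of the 5 arrays in either tissue. Of the 25697 probes on the array, 11738 met this rule, and they named 8210 of the 16593 genes that the array annotation used here names.

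The mice were male C57BL/6J. Feeding of the study diets began at 28 weeks of age, and the SD mice ate purified AIN-93G chow freely, in which carbohydrate, protein and fat gave 64, 19 and 17% of the calories. The other mice of the series ate the same chow with the sirtuin 1 activator SRT2104 (1.33 g per kg chow) or 40% fewer calories (CR), and they serve here only to repeat the tissue comparison. The age at sampling was not settled by the sources: the labels of the SD samples speak of the end of life, the design text of a selection of 5 mice per group after 41 weeks, and the labels of the CR samples of an age of 41 weeks with 14 weeks on the diet. The methods of the study give that same age and time for the arrays as a whole. The mice were not fasted before sampling, and the sources used here do not name the muscle. The design text has RNA taken from both tissues of these mice, but no source ties an array to a mouse. By the labels, liver RNA was prepared with a general column kit and muscle RNA with the kit for fibrous tissue, while the design text gives the fibrous tissue kit for both. If the labels hold, preparation and tissue cannot be told apart.

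Liver and skeletal muscle are both central to the use of fuel, with different tasks. Hepatocytes make most proteins of blood plasma, assemble lipoproteins and bile, detoxify drugs and ammonia, and release glucose and ketone bodies for other organs. Muscle fibres are filled with contractile filaments that a calcium cycle switches on and off, and they take up glucose, fatty acids and ketone bodies to renew ATP. Many steps that both tissues share are carried out by different genes in each, such as the liver and muscle forms of glycogen phosphorylase.

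The arrays of one tissue were alike. Across the probes tested, arrays correlated with r between 0.973 and 0.989 within liver and between 0.969 and 0.988 within muscle, against 0.385 to 0.426 between tissues. The share of all probes detected ran from 40.2 to 43.3% in liver and from 38.5 to 43.1% in muscle, a difference that did not pass an exact two-sided permutation test over the 10 arrays (p = 0.365). The median unprocessed signal of the probes tested was 429 to 547 in liver and 248 to 416 in muscle (p = 0.00794 in the same exact permutation test, its smallest possible value here). Levels below are log2 signals after background correction and quantile normalization over the 10 arrays, so both tissues were given one distribution of values, and a difference is liver minus muscle. No 2 of the 10 signal columns were identical. Precision is limited by how many arrays there are, and a p-value here measures the spread between the arrays of 5 mice.

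One liver array stood apart for muscle transcripts. Of 121 genes of the muscle lists that were higher in muscle, 7 were at least 1 log2 unit above every other liver array on the liver array whose column name begins with 2. There, Acta1, the actin of skeletal muscle, stood at 7.59 against 4.58 to 4.71 on the other 4 liver arrays, and Myl1, a myosin light chain of fast fibres, at 8.39 against 4.77 to 5.04. Pvalb, Atp2a1, Tnnc2, Tnni2 and Tnnt3, all genes of fast fibres, made up the rest, and Adipoq, the adipocyte hormone adiponectin, was also highest there, at 6.43 against 4.86 to 5.01. Several of the strongest muscle transcripts were thus detected on 1 liver array. Of the 121 genes, 45 were highest on that array among the 5 liver arrays, against 16 to 27 on each of the others. The median log2 signal of the 121 genes was 5.05 to 5.1 on the other liver arrays and 5.26 on that array. Without it, 1123 probes were detected in muscle and on no liver array in place of 1089, and 3048 and 3436 probes were higher in liver and in muscle in place of 3068 and 3475. Leaving out any liver array can only raise the first count, and the other 4 liver arrays, each left out in turn, gave 1107 to 1204. They gave 3053 to 3071 probes higher in liver and 3429 to 3451 in muscle. The counts thus do not isolate the effect of the muscle transcripts on that array.

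Most transcripts were found in both tissues. Of the 11738 probes, 7933 (67.6%) were detected on at least 4 of 5 arrays in both, and 7343 of these on all 10 arrays. In liver and on no muscle array 1250 probes were detected (10.6%), and in muscle and on no liver array 1089 (9.28%). A further 855 were detected in liver and on 1 to 3 muscle arrays, and 611 in muscle and on 1 to 3 liver arrays. These classes restate the detection rule and are a description. The rule cut through a continuum: 493 of the probes taken in lay between 0.01 and 0.02 in the detection p that decided on them (the fourth smallest of the better tissue), with a median log2 signal of 6.09 in the tissue with the higher mean, and 361 probes left out lay between 0.02 and 0.03, with a median of 5.92.

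**Figure D1:**
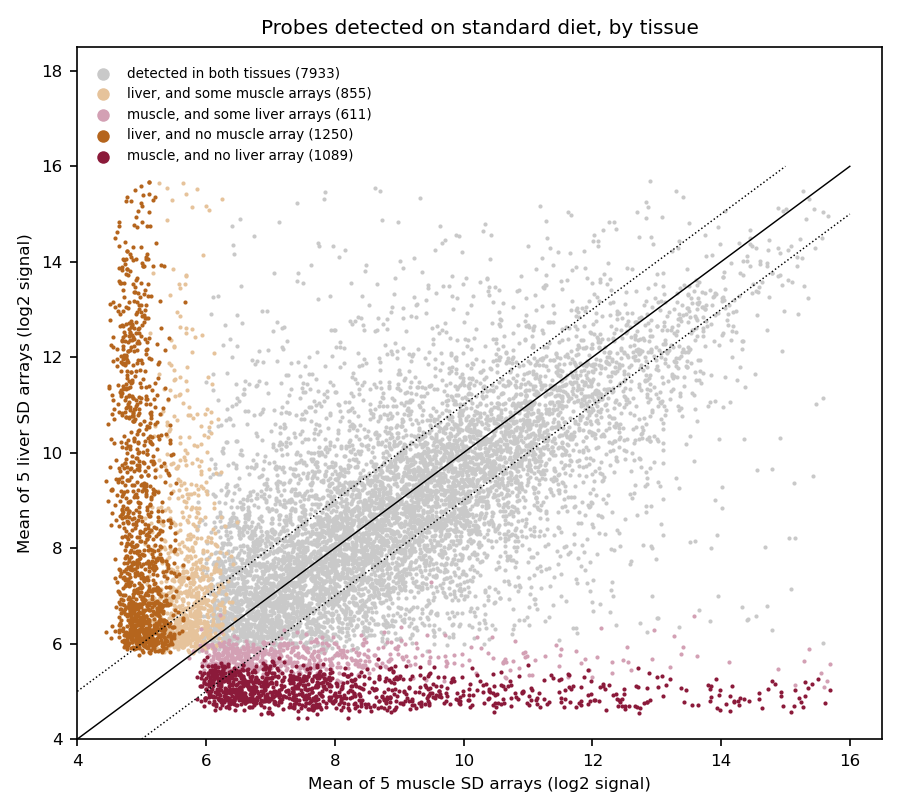
Mean log2 signal of the 5 liver arrays (vertical axis) against that of the 5 muscle arrays (horizontal axis) for the 11738 probes tested, coloured by detection class. The solid line marks equal levels and the dotted lines a difference of 1 log2 unit. The 7933 probes detected in both tissues lie around the diagonal, and the 1250 and 1089 probes detected in a single tissue form 2 bands at the background level of the other.

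Over all probes tested, 3068 were higher in liver and 3475 in muscle at an adjusted p under 0.05 and a difference of at least 1 log2 unit (limma with Benjamini-Hochberg adjustment, called below), which is 26.1% and 29.6%. With no limit on size, 37.8% were higher in liver and 44.5% in muscle. All 5 arrays of liver lay above all 5 of muscle for 32.0% of the probes, and the reverse held for 38.2%. Probes detected in a single tissue had to differ. Counts of lists cover all their members tested, and the number detected in both tissues is given beside them, a class in which 18.2% of probes were called for liver and 26.1% for muscle. The median difference was -0.14 over all probes tested and -0.23 over those detected in both. This centre depends on the scaling: it was -0.01 over all probes tested when arrays were scaled to the median of the probes detected on all 10, and 0.05 with the deposited z-scores as they are.

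Ambp, which encodes the precursor of alpha-1-microglobulin and bikunin, gave 15.55, 15.55, 15.57, 15.61 and 15.66 on the liver arrays and 4.81, 4.87, 4.94, 4.97 and 5.32 on the muscle arrays, where it was not detected. Its liver mean was 15.59 ± 0.05 (SD, n = 5), at least 836-fold above the level at which a probe was detected on the muscle arrays (adjusted p = 2.9e-16). Here and below, a gene undetected on every array of a tissue is given such a bound, computed on each array against the higher of its own signal and the lowest signal of any detected probe. Fga, the alpha chain of fibrinogen, stood at 15.36, 15.46, 15.49, 15.53 and 15.63 in liver and at 4.68, 4.68, 4.79, 4.87 and 5.47 in muscle, at least 783-fold higher in liver. Apoc3, an apolipoprotein that slows the clearance of triglyceride-rich particles, was at least 888-fold higher in liver, the widest bound of all probes in that direction. Among genes undetected on every muscle array, the others of the 10 with the largest difference were Serpina1c, Serpina1d and Serpina1e (alpha-1-antitrypsins, at least 880-, 740- and 581-fold), Azgp1 (671-fold), Mat1a, which makes S-adenosylmethionine (655-fold), Mug1 (497-fold) and Ahsg, the fetuin A of plasma (716-fold). Over all 1250 probes of this kind the median bound was 3.5-fold. Where a value in brackets is not called a bound, it is the difference in log2 units of a gene detected in both tissues or on some arrays of the lower one, and medians of lists are those of the measured differences. The 3 Serpina1 genes are near-identical copies whose probes may share transcripts.

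All 34 plasma protein and acute phase genes tested were called for liver (median difference 7.96, or 7.13 with genes undetected in muscle at their bound), and so were the 8 of them detected in both tissues. Orm1, an acid glycoprotein of the acute phase, had the largest difference on the liver side of any named gene detected in both, at 14.21, 14.53, 14.90, 14.93 and 15.17 in liver and 6.24 to 6.47 in muscle, a difference of 8.34 ± 0.17 (SE, adjusted p = 2.8e-14). All 20 coagulation genes were called for liver (median 7.76, or 6.79 with bounds), though 1 of them was detected in both, and among them were Kng1 (kininogen, 9.997, detected on 1 muscle array) and Plg (plasminogen, at least 352-fold). Of 19 complement genes 17 were called for liver (median 6.65, or 5.98 with bounds), among them C9 (at least 234-fold), and of the 7 detected in both 5 were. The exceptions were C1qb (0.76) and C1qc (0.72), subunits of C1q that macrophages make.

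Lipoprotein genes followed the same order with 1 exception. Of 19 genes 18 were called for liver, with Apoa2 (10.15, detected on 1 muscle array), Apoa1 (at least 685-fold) and Apoc4 (at least 531-fold) after Apoc3. Lpl, the lipase that frees fatty acids from lipoproteins at the vessel wall, gave 9.17, 9.54, 9.59, 9.78 and 10.24 in liver against 14.37, 14.56, 14.83, 15.04 and 15.15 in muscle, and was 34.9-fold higher in muscle (adjusted p = 3.9e-11). The groups were far apart, and Lpl was the only called gene of the list on the muscle side. Of the 4 genes detected in both tissues the other 3 were called for liver.

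Genes of detoxification and bile acids were called for liver nearly throughout. All 26 cytochrome P450 genes of families 1 to 4 were (median 7.71, or 6.79 with bounds), among them Cyp2d9 (9.48) and Cyp2d26 (at least 288-fold), and 5 of them were detected in both tissues. Cyp2d9 was detected on 1 muscle array, so its difference is set largely against background, as are those of Apoa2 and Kng1. Cyp2e1, which oxidises ethanol and small solvents, was one of the 5 detected in both tissues, with 15.38 to 15.59 in liver and 8.07 to 9.51 in muscle. Of 34 conjugating enzymes 29 were called for liver, while Mgst3 (-3.75) and Gstm5 (-2.53), both of the glutathione transferase group, were called for muscle. Of the 17 of this group detected in both, 12 were called for liver and these 2 for muscle. Of 17 bile acid genes 16 were called for liver, and of the 3 detected in both 2 were. Cyp7a1, the rate-limiting enzyme of bile acid synthesis, varied most among them, with 9.70, 10.61, 10.87, 11.29 and 12.35 in liver and 4.63 to 5.08 in muscle, where no array detected it (at least 33.9-fold higher in liver, adjusted p = 2.6e-09). The canalicular phospholipid carrier Abcb4 had a difference of 0.20 and was not called.

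Nitrogen and glucose metabolism showed the same split. Of 41 genes of the urea cycle and amino acid breakdown 36 were called for liver (median 5.35, or 4.33 with bounds) and 1, the branched-chain aminotransferase Bcat2 (-2.49), for muscle, and of the 15 detected in both 10 were called for liver. Arg1, which releases urea from arginine, stood at 14.33, 14.35, 14.57, 14.57 and 14.67 in liver and 4.51 to 4.72 in muscle, at least 393-fold higher in liver. Cps1, the entry enzyme of the urea cycle, stood at 14.04 to 14.67 and 4.65 to 5.22, at least 343-fold higher in liver. The next enzyme but one, Ass1, was detected on all muscle arrays at 6.23 to 6.52, against 14.19 to 14.76 in liver. Of 14 genes of hepatic glucose output 12 were called for liver (4 of the 6 detected in both), among them Fbp1 (at least 167-fold) and the glucose transporter Slc2a2 (at least 99.7-fold), while the glycogen-targeting subunit Ppp1r3c (-2.83) was called for muscle. For ketone bodies and peroxisomal oxidation 16 of 19 were called for liver (8 of the 11 detected in both). The gene called for muscle there was Oxct1, the enzyme with which tissues other than liver use ketone bodies, at 5.98, 6.12, 6.33, 6.54 and 6.79 in liver and 12.87, 13.19, 13.38, 13.59 and 13.72 in muscle (128-fold higher in muscle, adjusted p = 6.7e-13).

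Of 19 transcription factors of hepatocytes 18 were called for liver (5 of the 6 detected in both). Hnf4a, the nuclear receptor that keeps hepatocytes differentiated, gave 12.02, 12.17, 12.37, 12.71 and 12.89 in liver and 5.55, 5.75, 5.82, 5.85 and 6.17 in muscle, where 2 of 5 arrays detected it. Foxa3 (at least 99-fold), the bile acid receptor Nr1h4 (at least 66.3-fold) and Onecut2 (at least 38.9-fold) were detected on no muscle array. Cebpb, which many cell types use, had a difference of 0.41 and was not called. For synthesis of cholesterol and fatty acids 30 of 33 genes were called for liver (median 3.14), from Fads2 (at least 30-fold) and Elovl6 (at least 33.9-fold) to Dgat1 (1.01), and for folding and export through the endoplasmic reticulum 23 of 32 (median 1.74), from Ero1b (4.90) and Pdia4 (3.98) to Ssr4 (1.05). Of the members detected in both tissues these were 19 of 22 and 21 of 30.

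On the muscle side, Ckm, the muscle creatine kinase, gave 15.55, 15.57, 15.59, 15.67 and 15.71 on the muscle arrays and 4.50, 4.60, 4.62, 4.64 and 5.39 on the liver arrays, where it was not detected. It was at least 905-fold higher in muscle (adjusted p = 1.6e-15). Mylpf, the regulatory light chain of fast myosin, reached 15.65 to 15.73 against 4.71 to 5.43 and had the widest bound on this side, at least 954-fold. Among genes undetected on every liver array, the others of the 10 with the largest difference were Ckmt2 (mitochondrial creatine kinase, at least 712-fold), Rpl3l (694-fold), the calcium release channel Ryr1 (642-fold), the fast myosin heavy chain Myh4 (576-fold), titin, Ttn (750-fold), myoglobin, Mb (785-fold), Cox6a2 (728-fold) and Tcap, which caps titin at the Z-disc (654-fold). Over the 1089 probes of this kind the median bound was 3.13-fold.

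Of 17 thick filament genes 16 were called for muscle (median -7.66, or -6.64 with bounds), and of 16 thin filament genes 15 (median -6.35, or -5.66 with bounds). Few members were detected in both tissues: 3 of the thick filament, of which 2 were called for muscle, and 6 of the thin filament, of which 5 were called for muscle and 1 for liver. Myh4 gave 14.78, 14.88, 14.97, 14.98 and 15.24 in muscle and 4.56 to 4.89 in liver, and Myh1 gave 12.25 to 12.73 and 4.70 to 4.86, both heavy chains of fast fibres. Myh7, the heavy chain of slow fibres and heart, and Myh8, of developing muscle, were at least 4.61-fold and 2.16-fold higher in muscle. Acta1 stood at 15.46, 15.66, 15.67, 15.71 and 15.71 in muscle, and at 4.58, 4.59, 4.61, 4.71 and 7.59 in liver, the highest being the array described above. The non-muscle light chain Myl6 (-0.10) was not called. Of 32 genes of the Z-disc, titin and costamere 29 were called for muscle (median -6.53, or -5.88 with bounds). Of the 10 detected in both 8 were called for muscle. The 3 called for liver were the syntrophin Sntb1 (at least 1.53-fold) and the non-muscle actinins Actn4 (1.39) and Actn1 (1.25), whereas of the muscle actinins Actn3 differed by -8.50 and Actn2 was at least 396-fold higher in muscle.

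Genes of excitation and calcium were called for muscle in 21 of 24 cases (median -4.89, or -4.33 with bounds), but 3 of them were detected in both tissues, of which 1 was called for muscle and 1 for liver. Ryr1 stood at 14.99, 15.03, 15.08, 15.15 and 15.38 in muscle and 4.50 to 4.83 in liver. Atp2a1, the calcium pump of fast fibres, gave 15, 15.33, 15.36, 15.39 and 15.39 in muscle, with 4.96, 5.08, 5.09, 5.26 and 7.81 in liver, again highest on the array described above. The acetylcholine receptor subunits Chrna1 (at least 11-fold), Chrnb1 (-5.12) and Chrne (at least 3.94-fold) and the kinase Musk (at least 4.57-fold), all of the neuromuscular junction, were called for muscle. Asph (1.09) was called for liver by its brightest probe and is described again with probes that disagree. Among myogenic regulators and myokines 11 of 14 were called for muscle (all 5 of those detected in both). Myf6, the regulator kept on in adult fibres, gave 12.08, 12.20, 12.23, 12.53 and 12.89 in muscle and 4.77 to 5.02 in liver (at least 96.2-fold). Myod1 was undetected in liver (at least 3.46-fold), while Myog (-0.46) was not called. Fgf21, a hormone that both tissues can secrete, went to liver, with 7.15, 7.81, 8.61, 9.08 and 9.89 against 4.65 to 5.45.

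**Figure D2:**
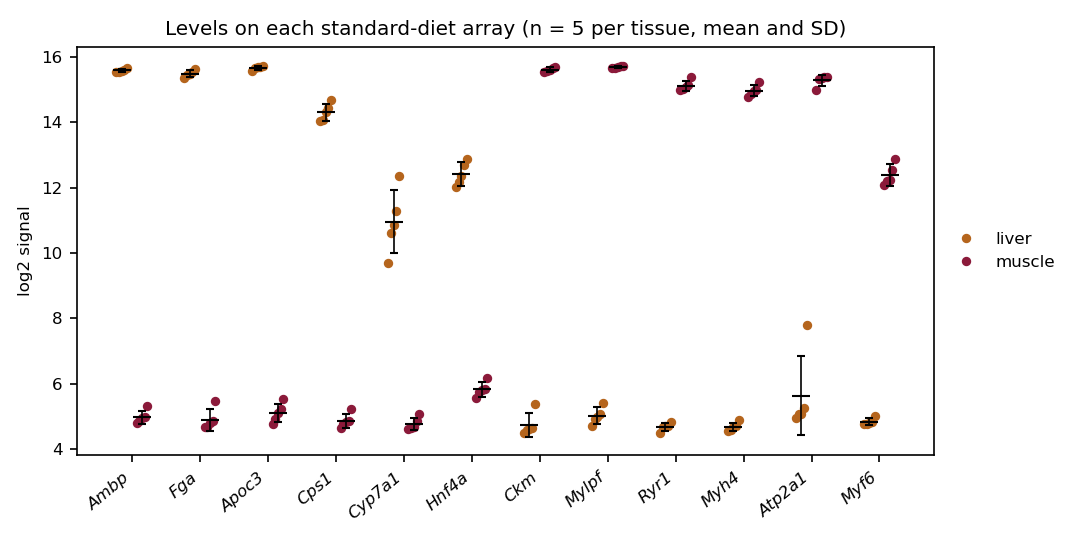
Log2 signal of 12 genes on each of the 5 liver (brown) and 5 muscle (red) standard-diet arrays, with the mean and SD as black bars. Ambp, Fga and Apoc3 lie above 15 in liver and under 6 in muscle, Ckm and Mylpf show the reverse, Cyp7a1 spreads from 9.70 to 12.35 over the liver arrays, and Atp2a1 has 1 liver array at 7.81.

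Promoters were read for base composition. Windows from 250 bases before to 50 after the transcription start were taken from RefSeq (GRCm38.p6) and matched by symbol for 6687 of the 8210 genes. Genes with a bound of at least 100-fold for liver had a median of 3 CpG dinucleotides in the window (73 promoters) and those for muscle 8 (42 promoters), against 22 for genes detected in both tissues with a 95% interval of the difference within 0.5 log2 units (507 promoters) and 20 for all genes tested. Windows with 10 or more CpG made up 8.22, 38.1, 91.1 and 79.9% of these 4 groups. For all 27025 promoters of the reference the share was 43.9%. The limit of 100-fold picked out the far ends: over all genes detected in liver and on no muscle array (566 promoters) the median was 8 CpG and the share 43.3%, and over all those detected in muscle and on no liver array (554 promoters) 13 and 59.6%.

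Short motifs bound by known regulators of each tissue were then searched on both strands. GTTAAT, one arm of the palindromic HNF1 site, occurred in 23.3% of the promoters of the liver group with the 100-fold bound, 4.76% of the muscle group, 2.76% of the shared group and 7.2% of all promoters. TTGCNNAA, both arms of the C/EBP site, occurred in 30.1, 9.52, 7.1 and 10.8%. CAGCTG, an E-box that myogenic factors bind, occurred in 9.59% of the liver group, 40.5% of the muscle group, 12.2% of the shared group and 16.1% of all promoters. CATTCC, the core of the TEAD element, was more even, with 21.9, 23.8, 10.1 and 14.6%. TATAAA, the TATA box, occurred in 21.9, 7.14, 5.33 and 14.2%. CAAAGTCCA, the core of the HNF4 site, occurred in 5.48, 0, 0.197 and 0.477%, the MEF2 consensus in 1.37, 2.38, 0.394 and 0.566% and the CArG box of serum response factor in 2.74, 7.14, 0.986 and 1.57%. Over all genes detected in 1 tissue and on no array of the other, the HNF1 arm was in 11.3% of liver and 3.25% of muscle promoters, the E-box in 15.9 and 23.1%. The groups were formed from the measured levels, the shares were not tested, and a match is a run of letters that has not been shown to be a bound site here.

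**Figure D3:**
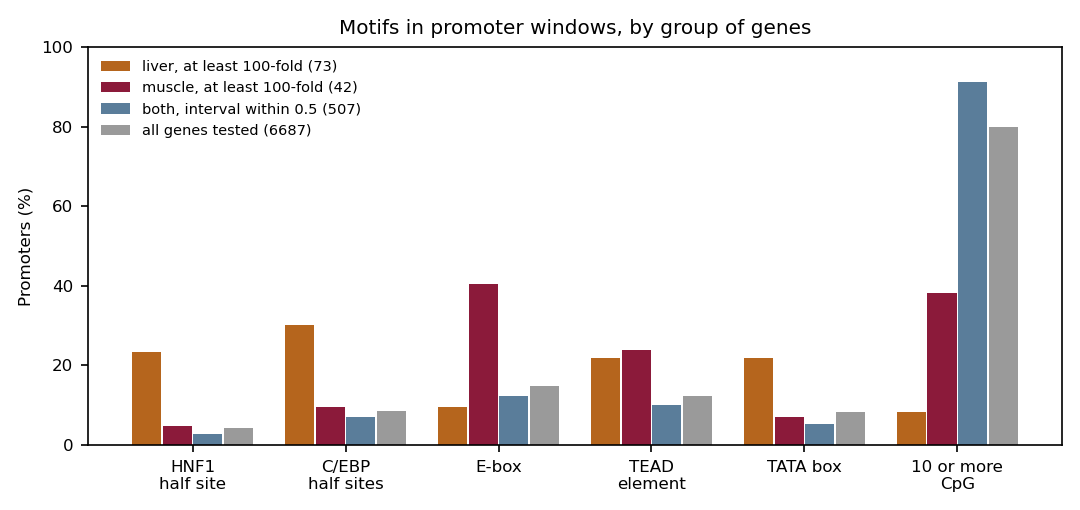
Share of promoter windows that hold a motif or at least 10 CpG dinucleotides (vertical axis, %), for genes with a bound of at least 100-fold in liver (73 promoters), in muscle (42), genes detected in both tissues with an interval within 0.5 log2 units (507) and all genes tested (6687). The E-box is in 40.5% of the muscle group and 9.59% of the liver group, the HNF1 arm in 4.76 and 23.3%.

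The windows of 6 genes from the far ends of the comparison and of 1 shared gene are printed to show these motifs in place, each 5′ to 3′ on the strand of the gene. Fga (chr3:83025903-83026202, plus strand) and Serpina1c (chr12:103904901-103905200, minus strand) represent liver, being those, of the 4 genes undetected in muscle with the largest difference and a promoter in the table, whose windows hold a marked motif. Capitals mark the HNF1 arm, read ATTAAC on this strand in Fga, and the C/EBP letters of Fga, read TTGAGCAA on this strand. These begin 43 and 135 bases before the start in Fga, and the HNF1 arm 27 bases before it in Serpina1c.
Fga: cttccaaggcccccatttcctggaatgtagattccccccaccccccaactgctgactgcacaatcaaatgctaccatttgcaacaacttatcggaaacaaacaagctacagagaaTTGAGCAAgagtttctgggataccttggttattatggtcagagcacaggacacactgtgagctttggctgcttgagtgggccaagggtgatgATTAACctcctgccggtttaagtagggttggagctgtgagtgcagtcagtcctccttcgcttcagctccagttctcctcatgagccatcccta
Serpina1c: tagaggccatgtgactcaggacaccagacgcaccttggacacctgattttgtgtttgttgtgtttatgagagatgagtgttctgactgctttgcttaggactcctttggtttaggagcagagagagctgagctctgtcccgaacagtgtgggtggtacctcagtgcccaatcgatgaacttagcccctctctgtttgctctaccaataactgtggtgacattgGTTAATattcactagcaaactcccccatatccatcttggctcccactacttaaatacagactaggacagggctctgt

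For muscle, Ckm (chr7:19410844-19411143, plus strand), Mylpf (chr7:127211358-127211657, plus strand), Ckmt2 (chr13:91876836-91877135, minus strand) and Rpl3l (chr17:24727576-24727875, plus strand) are the 4 genes undetected in liver with the largest difference that have a promoter in the table, and capitals mark the E-box. It begins 249, 51, 107 and 20 bases before the start.
Ckm: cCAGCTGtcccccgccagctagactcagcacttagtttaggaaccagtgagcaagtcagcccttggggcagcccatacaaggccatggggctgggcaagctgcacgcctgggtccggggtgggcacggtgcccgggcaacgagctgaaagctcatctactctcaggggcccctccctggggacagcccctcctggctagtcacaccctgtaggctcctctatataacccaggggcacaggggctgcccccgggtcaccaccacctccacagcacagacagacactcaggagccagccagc
Mylpf: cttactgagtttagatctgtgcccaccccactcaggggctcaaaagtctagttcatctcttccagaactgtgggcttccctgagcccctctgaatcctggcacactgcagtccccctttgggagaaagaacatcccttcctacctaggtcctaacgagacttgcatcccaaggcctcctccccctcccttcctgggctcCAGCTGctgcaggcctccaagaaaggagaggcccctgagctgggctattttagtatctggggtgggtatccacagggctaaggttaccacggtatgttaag
Ckmt2: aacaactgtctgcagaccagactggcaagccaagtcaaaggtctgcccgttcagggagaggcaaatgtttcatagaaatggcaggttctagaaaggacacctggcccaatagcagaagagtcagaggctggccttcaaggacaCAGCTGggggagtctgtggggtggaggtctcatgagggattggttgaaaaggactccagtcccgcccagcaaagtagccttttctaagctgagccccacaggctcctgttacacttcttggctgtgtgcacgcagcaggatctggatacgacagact
Rpl3l: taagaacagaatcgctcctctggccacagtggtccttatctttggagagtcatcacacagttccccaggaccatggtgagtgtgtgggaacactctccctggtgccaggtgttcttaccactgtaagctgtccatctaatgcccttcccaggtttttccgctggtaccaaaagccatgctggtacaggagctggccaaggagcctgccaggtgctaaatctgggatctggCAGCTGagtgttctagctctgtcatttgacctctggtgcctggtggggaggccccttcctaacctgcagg

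Wbp2 (chr11:116086946-116087245, minus strand), which encodes a coactivator with a WW-domain binding motif, represents the shared genes, and capitals mark its 19 CpG dinucleotides, where the 6 windows above hold 2 to 7. The windows of Ambp, the gene with the largest liver difference, and of Azgp1 held none of the HNF1, C/EBP, HNF4 (CAAAGTCCA) or E-box letters.
Wbp2: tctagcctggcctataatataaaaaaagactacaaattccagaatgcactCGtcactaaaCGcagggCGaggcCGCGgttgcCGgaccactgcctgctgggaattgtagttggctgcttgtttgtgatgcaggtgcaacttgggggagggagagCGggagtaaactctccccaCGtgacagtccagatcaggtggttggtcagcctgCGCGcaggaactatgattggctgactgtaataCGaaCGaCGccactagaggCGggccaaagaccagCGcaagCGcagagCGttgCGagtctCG

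Where a liver and a muscle gene encode forms of the same protein, the tissues mostly divided them. Of 30 such pairs, 17 had both genes among the probes tested. In 14 of the 17 the liver form was called for liver and the muscle form for muscle. The muscle form was called for muscle in all 17, from glycogen synthase, Gys1 (-1.96), to creatine kinase, Ckm (at least 905-fold). The form named for liver or general use ran from fructose bisphosphatase, Fbp1 (at least 167-fold), to cytochrome c oxidase, Cox7a2 (0.29, not called), and in 2 pairs was called for muscle too. The pairs were chosen as known isoenzymes, so their division is described and not set against chance.

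Glycogen phosphorylase, which frees glucose units from glycogen, lay at one end. Pygl gave 13.55, 13.60, 13.79, 13.93 and 13.94 in liver and 5.97, 7.17, 7.27, 7.33 and 7.49 in muscle. Pygm gave 4.59, 4.69, 4.72, 4.79 and 4.81 in liver, undetected, and 13.53, 13.59, 13.62, 13.65 and 13.83 in muscle (at least 230-fold). The liver form was thus still detected on all 5 muscle arrays (105-fold lower there, adjusted p = 1.7e-11), and the muscle form on no liver array. Its activating kinase had Phkg1 and Phka1 undetected in liver (at least 133-fold and 67.3-fold higher in muscle), beside Phkg2 at 1.63 and Phka2 at 1.21.

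In glycolysis, phosphofructokinase had Pfkl at 10.43 to 10.84 in liver and 7.90 to 8.23 in muscle, and Pfkm at 9.26 to 9.69 in liver and 15.38 to 15.46 in muscle, so both forms were detected in both tissues and moved apart by 2.58 and -5.91. Pyruvate kinase had Pklr detected in liver alone, at 8.05, 8.82, 9.20, 9.25 and 9.62 (at least 8.61-fold), and Pkm in both, 101-fold higher in muscle. Phosphoglycerate mutase had Pgam1 at 2.43 and Pgam2 at least 255-fold higher in muscle. Hk2, the hexokinase of insulin-sensitive tissues, was 242-fold higher in muscle, and Eno3, the muscle enolase, 769-fold, the largest difference of any named gene detected in both tissues. The insulin-responsive transporter Slc2a4 stood at 11.73 to 12.03 in muscle and was undetected in liver (at least 70.0-fold), where Slc2a2, the high-capacity transporter, stood at 12.29 to 12.87 (at least 99.7-fold above muscle).

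The same division ran through the respiratory chain and the ribosome. Of cytochrome c oxidase, the forms of striated muscle, Cox6a2 and Cox8b were at least 728-fold and 508-fold higher in muscle, and Cox7a1, detected in both tissues, differed by -7.93. Cox6a1 gave 13.83, 13.88, 13.89, 13.92 and 14.19 in liver and 10.62, 11.36, 11.44, 11.69 and 11.82 in muscle, a difference of 2.55 ± 0.20 (SE), and Cox8a differed by 2.15. Cox7a2 gave 9.48 to 9.84 in liver and 8.98 to 9.78 in muscle, overlapping, with a 95% interval of the difference from -0.08 to 0.65 (adjusted p = 0.13). Rpl3l, the striated-muscle paralogue of ribosomal protein L3, gave 15.17 to 15.29 in muscle and 4.66 to 5.00 in liver, and Rpl3 itself 12.04 to 12.16 in muscle and 13.39, 13.53, 13.55, 13.62 and 13.79 in liver. Purine handling followed with AMP deaminase (Ampd2 at least 3.32-fold higher in liver, Ampd1 at least 564-fold higher in muscle) and adenylosuccinate synthase (Adss 3.34, Adssl1 -4.45).

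In the remaining pairs both forms were higher in muscle. Ckb, the brain-type creatine kinase, gave 9.32 to 9.82 in liver and 10.51 to 11.35 in muscle (2.72-fold, adjusted p = 2.4e-06), beside Ckm. Atp2a2, the calcium pump of slow fibres, heart and most other cells, gave 10.36 to 11.53 in liver and 13.28 to 14.13 in muscle (6.84-fold, adjusted p = 6.8e-08), beside Atp2a1.

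**Figure D4:**
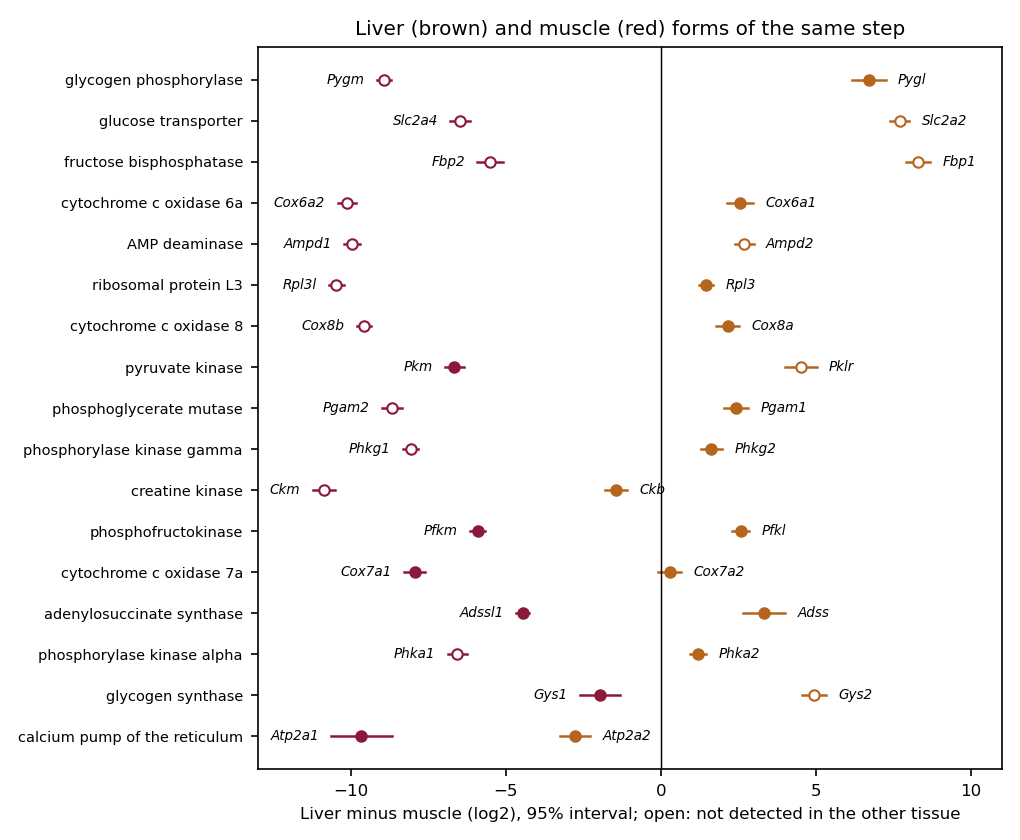
Liver minus muscle difference (horizontal axis, log2) of the form named for liver or general use (brown) and for muscle (red) in 17 pairs, with lines for 95% intervals and open circles for genes detected on no array of the other tissue. All 17 muscle forms lie left of 0, 15 of the other forms lie right of 0, Ckb and Atp2a2 lie left of it, and the interval of Cox7a2 includes it.

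Transcripts found in both tissues mostly differed by little, and few could be placed near equality. Of the 7933 probes detected in both, 4411 (55.6%) differed by under 1 log2 unit, 1865 (23.5%) had an adjusted p of 0.05 or more, and 3125 (39.4%) had a 95% interval within 1 log2 unit either way, which is the firmer statement of likeness. The interval lay within 0.5 for 800 probes (10.1%). At the other end 293 probes were at least 3 log2 units higher in liver and 251 in muscle. Closest to equality was Wbp2, with 13.57, 13.58, 13.61, 13.62 and 13.69 in liver and 13.51, 13.60, 13.62, 13.67 and 13.68 in muscle (95% interval -0.21 to 0.21). Next came Mrpl40, Iba57 and Poldip2, which serve mitochondria, and Ssu72, Pold4, Txnl4b, Klhl17, Abhd17a and BC005537, all with intervals within 0.26. Equality here is on the common scale, and these 10 genes were picked as the nearest to it on SD. On the other diets, whose arrays were normalized on their own, they differed by between -0.51 and 1.34. The reason for this spread was not tested.

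Oxidative metabolism was called for muscle in large part, yet far less steeply than the tissue's own proteins. Of 56 respiratory chain subunits 37 were called for muscle and 2 for liver (median -1.15), which is 35 of the 54 detected in both against 26.1% of probes of that class. Apart from the isoforms above, members ran from -2.66 (Ndufb4, complex I) and -2.62 (Cycs, cytochrome c) to -0.32 (Cox4i1). Under the scaling to shared probes the median was -0.85 and 20 were called for muscle, and with the deposited z-scores it was -1.57 with 44 called, or -1.88 with 49 when these were rescaled. Of 20 genes of ATP synthase and nucleotide carriers, all detected in both tissues, 11 were called for muscle and 1, the nucleotide carrier Slc25a5 (1.73), for liver. Vdac1, the channel of the outer membrane, was lowest at -3.31. Of 21 genes of the Krebs cycle and pyruvate dehydrogenase 15 were called for muscle and 4 for liver (14 and 4 of the 20 detected in both). The largest difference on the muscle side was that of the kinase Pdk4 (-5.45), which turns pyruvate dehydrogenase off. Among those called for liver were Pdk1 (1.88) and Pdp2 (2.64).

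The 3 subunits of NAD-dependent isocitrate dehydrogenase did not move together. Idh3a gave 7.69, 7.80, 8.15, 8.15 and 8.23 in liver and 12.72, 12.94, 12.95, 13 and 13 in muscle (30.2-fold higher in muscle, adjusted p = 6.9e-13), and Idh3g differed by -2.49. Idh3b gave 11.95, 12.07, 12.08, 12.09 and 12.18 in liver and 8.83, 8.83, 8.86, 8.87 and 9.01 in muscle (9.14-fold higher in liver, adjusted p = 3.6e-12). A probe reads 1 stretch of a transcript, and whether the Idh3b probe reads all its transcripts was not tested. Suclg1 (-1.16) and Suclg2 (1.91), which encode the alpha subunit of succinyl-CoA ligase and its GTP-forming beta subunit, also went opposite ways.

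Mitochondrial fatty acid oxidation had no common direction. Of 18 genes 5 were called for muscle, 2 for liver and 11 not called, and the median of -0.05 turned to 0.26 under the scaling to shared probes. Of the 15 detected in both tissues 3 were called for muscle and 1 for liver. Cpt1b, the muscle gate for fatty acids into mitochondria, gave 6.35 to 6.74 in liver and 12.81 to 13.22 in muscle (89.1-fold), and Ucp3 was at least 7.32-fold higher in muscle. Acaa2, the last step of the cycle, was highest on the liver side (2.81). Between them lay the acyl-CoA dehydrogenases Acadl (0.11), Acadvl (-0.15) and Acadm (-0.55).

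Ribosomal and proteasome genes were mostly not called, and their counts moved with the scaling. Of 54 cytosolic ribosomal protein genes 43 were not called, 9 were called for muscle and 2, Rpl13a (1.54) and Rpl3 (1.46), for liver (6 and 2 of the 50 detected in both). Their median was -0.36, or -0.05 under the scaling to shared probes, where 5 were called for liver and 4 for muscle. With the deposited z-scores their median was -0.70 and 17 were called for muscle, or -0.82 and 21 when the scores were rescaled to the log2 signals. Of 35 proteasome genes 24 were not called, 4 were called for liver and 7 for muscle (3 and 7 of the 34 detected in both). Their median was -0.40, or -0.03 under the scaling to shared probes, where 6 were called for liver and 3 for muscle. With the rescaled z-scores 11 were called for muscle (median -0.51). Of the 4 proteasome genes called for liver Psmb9 (3.06), Psmb8 (1.72) and the activator subunit Psme1 (1.43) belong to the interferon-induced form. Of 13 clock genes, all detected in both tissues, 10 were not called. Arntl, the BMAL1 activator, gave 7.22 to 8.24 in liver and 9.08 to 9.75 in muscle (3.25-fold, adjusted p = 8.1e-06), and Nr1d1 (-1.39) and Tef (-1.01) were also called for muscle. The sources used here do not state the hour of sampling, so a clock gene's difference cannot be told apart from a shift of phase between tissues.

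**Figure D5:**
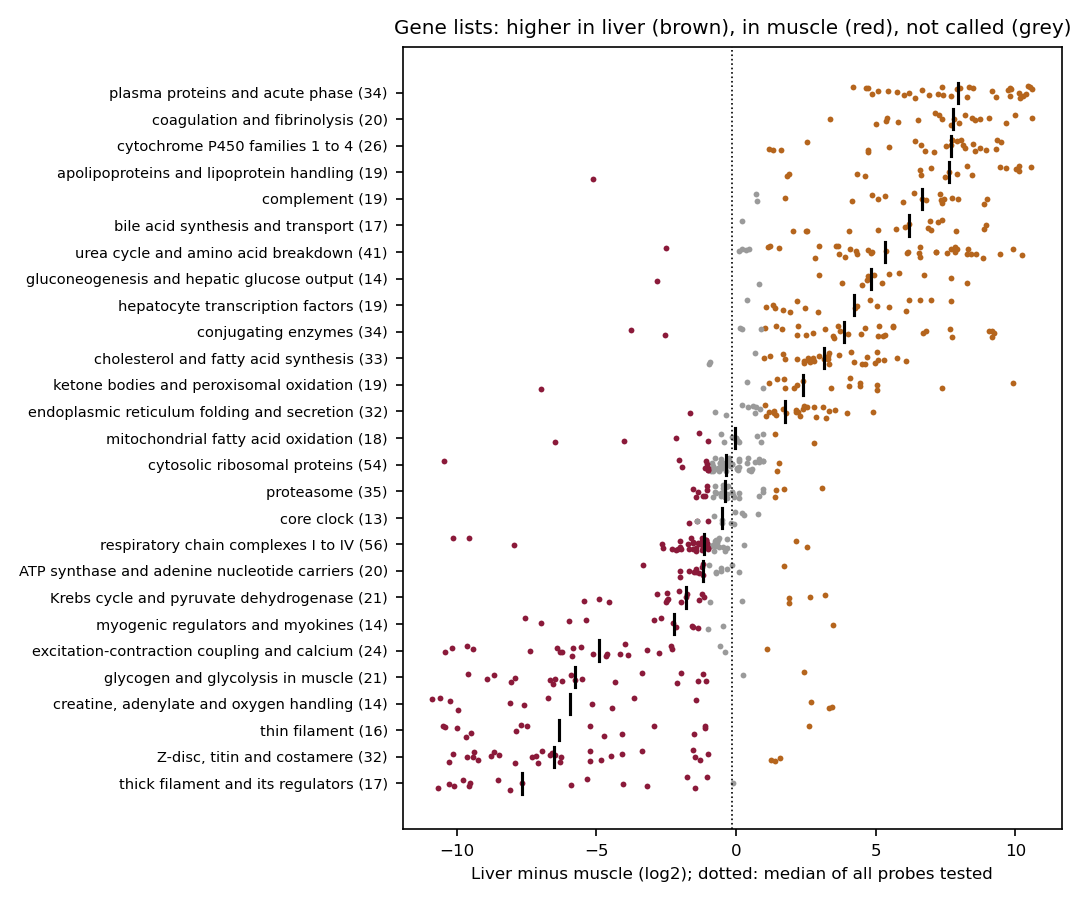
Liver minus muscle difference (horizontal axis, log2) of each gene in 27 lists, ordered by list median (black bar), with the number of genes tested in brackets. Brown points were called for liver, red for muscle and grey were not called, and the dotted line is the median of all probes tested. The liver lists have medians from 2.41 to 7.96, the muscle lists from -2.21 to -7.66, and the lists of shared functions from 3.14 for lipid synthesis to -1.79 for the Krebs cycle.

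SRT2104 is given as an activator of sirtuin 1, a protein deacetylase, so the sirtuin genes were read in the untreated tissues. Sirt1 gave 7.78, 8.04, 8.05, 8.11 and 8.25 in liver and 7.77, 8.10, 8.27, 8.48 and 8.97 in muscle. The groups overlapped, and the 95% interval of the difference ran from -0.69 to 0.15 (adjusted p = 0.21). Sirt3, the deacetylase of mitochondria, gave 11.67, 11.80, 12.01, 12.05 and 12.13 in liver and 9.52, 9.68, 9.94, 9.98 and 10.32 in muscle, 4.12-fold higher in liver (adjusted p = 5.1e-08). Sirt7, a nucleolar member, gave 11.75 to 11.96 and 8.26 to 8.60, 10.5-fold higher in liver (adjusted p = 5.2e-12). Sirt2, which is mainly cytoplasmic, gave 8.76 to 9 in liver and 9.70 to 9.91 in muscle, a difference of -0.94 that passed the adjusted p (2e-06) and missed the size limit, and on the other diets its difference was -0.29 with SRT2104 and 0.50 with CR. Sirt5 differed by 0.12 (95% interval -0.21 to 0.46).

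For some genes the tissue depended on the probe. Of 1035 genes with at least 2 called probes, 20 (1.93%) had probes called in opposite directions. Several encode proteins with known muscle splice forms. Tpm3, a tropomyosin with slow-muscle and cytoskeletal forms, gave 9.97 to 10.64 in liver and 7.46 to 8.13 in muscle at its brightest probe (2.61, adjusted p = 5.9e-09), while its other 3 probes were detected in muscle and on no liver array, the lowest with a difference of -4.54. Asph, whose muscle transcripts encode junctin and junctate of the calcium store, had probes at 1.10 and -6.89, each undetected in the other tissue, and Pdlim5, which encodes a Z-disc protein, at 2.51 and -5.38. Pde4dip, a scaffold known as myomegalin, had probes at 2.36 and -4.60, both detected in both tissues. The other genes among the 10 that differed most were Tubb2b (4.07 and -3.78), Kif1b (1.44 and -5.83), Tsc22d1 (1.99 and -2.88), Zbtb18 (1.01 and -3.03), Actb (2.49 and -1.49) and Ppp2r5c (2.26 and -1.70). When a gene's tested probes were averaged, Asph and Tpm3 turned to muscle (-1.57 and -2.56) and Tsc22d1 to -0.45. Which transcripts each probe reads was not tested, and cross-hybridisation between family members, as among tubulins and actins, cannot be told apart from splicing by signal alone.

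Markers of the labelled tissue were as the labels say. Apoa1, Ttr, Serpina1a, Cps1, Cyp2e1 and Hnf4a, all of hepatocytes, were detected on all 5 liver arrays, and Ckm, Acta1, Myh4, Myh1, Tnnt3, Tnni2, Mylpf and Atp2a1, all of fibres, on all 5 muscle arrays. Ttr was also detected on 2 muscle arrays, at up to 6.56 against 15.23 to 15.55 in liver, and Cyp2e1 on all 5. Hnf4a was detected on 2 muscle arrays and Serpina1a on 1. Acta1 and Atp2a1, of fibres, were each detected on 1 liver array. In bulk RNA, fewer cells of a type and less RNA per cell cannot be told apart, which holds for all lists below.

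Markers of other cell types were detected in both tissues. Of 15 macrophage markers tested 6 were called for liver and 9 not called, with 15 detected on every liver array and 11 to 13 on the muscle arrays (summed log2 level 13.26 to 14.03 against 13.10 to 13.51). Of the 12 detected in both tissues 3 were called for liver. The liver-resident Kupffer cell markers led: Clec4f, a lectin of these cells, gave 9.33 to 9.74 in liver and was undetected in muscle (at least 12.5-fold), and Vsig4 differed by 3.91. Of 22 endothelial markers 5 were called for liver, among them Clec4g (6.90), Dnase1l3 (at least 11.8-fold) and Oit3 (at least 6.06-fold) of the liver sinusoids, and 8 for muscle, among them the general markers Cdh5 (-2.85), Emcn (-2.33) and Pecam1 (-2.21). Over all probes tested the shares were 26.1% and 29.6%. Of the 16 markers detected in both tissues 2 were called for liver and 5 for muscle, beside 18.2% and 26.1% of all probes of that class. With the deposited z-scores as they are, 5 of the list were called for each tissue. Rgcc, a regulator of the cell cycle, was undetected in liver (at least 149-fold higher in muscle).

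Connective tissue, vessel wall and most markers tested of nerve, Schwann and satellite cells were read more from muscle. Of 23 fibroblast and matrix genes 22 were called for muscle (median -3.08), from Ogn (-4.39) and Tnxb (-4.18) to Dcn (-1.03), with a summed level of 15.25 to 15.44 against 13.65 to 14.01 in liver. Of the 14 detected in both tissues 13 were called for muscle. Of 14 genes of smooth muscle, pericytes and stellate cells 11 were called for muscle, while Reln (2.55), Ecm1 (1.97) and Colec10 (at least 1.47-fold), of stellate cells, were called for liver. Of the 8 detected in both tissues 6 were called for muscle and 2 for liver. Among these 6 was desmin, Des (-7.9), the largest difference of the list, and which cells gave its signal was not tested. Of 11 markers of nerve, Schwann and satellite cells on the array 5 were tested, and 2 of these were detected in both tissues. Myelin protein Mbp (at least 24.1-fold), Ncam1 (at least 4.06-fold), Pmp22 (-3.63) and Chodl (at least 7.41-fold) were called for muscle and Vcam1 (2.15) for liver. Of 12 heart markers on the array only 2 met the detection rule in either tissue. Of these, Myh6, the heart's alpha heavy chain, gave 7.98 to 9.08 in muscle and was undetected in liver, and Myl4 differed by -4.06. Of 8 bile duct markers on the array 2 were tested. These were keratins of bile duct and hepatocytes, Krt8 (6.53) and Krt18 (at least 32.2-fold), and both were called for liver.

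Fat and blood markers were mixed, with 9 of 13 fat and 5 of 20 blood markers on the array tested. Of the 6 fat markers detected in both tissues 2 were called for each tissue. Of the 4 blood markers detected in both 2 were called for liver. Adiponectin, Adipoq, gave 9.11, 9.21, 9.43, 9.53 and 9.77 in muscle and 4.86 to 6.43 in liver, and leptin, Lep, gave 8.53, 9.18, 9.33, 10.04 and 10.27 and 5.22 to 6.23. On SRT2104 Adipoq and Lep differed by -1.09 and -1.10 only, and on CR by -5.25 and -5.10. Plin4 (-3.51) and Pnpla2 (-1.70) were also called for muscle, while Car3 (1.80) and Pparg (1.41) were called for liver, where Cidea (0.70), Cidec (-0.39) and Lipe (-0.96) were not called. The share of muscle signal that comes from fat between fibres was not tested. Of the haemoglobin genes Hbb-bt (0.33) and Hba-a1 (-0.35) neither was called, while Alas2, which makes haem in red cell precursors, gave 11.32 to 11.78 in liver and 7.13 to 7.91 in muscle. The neutrophil genes S100a9 (2.30, adjusted p = 0.0116) and S100a8 (2.01, 95% interval 0.12 to 3.89, adjusted p = 0.0472) were called for liver, but the tissues overlapped in both, and S100a8 was not called when all probes of the array were tested (adjusted p = 0.0969) or when any of 6 arrays was left out.

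Within a tissue the SD of a probe detected on all 5 arrays had a median of 0.22 in liver and 0.24 in muscle, and 95% of such probes had an SD of no more than 0.53 and 0.52. The genes that varied most in liver were Mt1 (metallothionein, SD 2.08), Fos (2.08), Saa1 (1.95), Cxcl1 (1.82), Saa2 (1.80), Gsta1 (1.79), Lcn2 (1.75), Socs3 (1.68), Gadd45g (1.64) and Cyp4a14 (1.6). In muscle they were Ddit4 (2.52), Slc25a25 (1.75), Junb (1.73), Depp1 (1.59), Atf3 (1.54), Fosb (1.46), Mt1 (1.42), Arrdc2 (1.40), Per1 (1.35) and Zfp36 (1.30). For Mt1 the liver arrays gave 11.80, 11.87, 15.57, 15.59 and 15.73 and the muscle arrays 11.60, 13.03, 14.67, 14.67 and 14.84, so the range within either tissue exceeded the difference of 0.35 between them (95% interval -1.6 to 2.30). Saa1 spread from 6.5 to 11.67 in liver and was at least 15.4-fold higher there than in muscle on average.

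Arrays of the other diets, which took no part in the rule or the fit, repeated the difference. Of the 3068 probes called for liver on SD, 99.8% had the same sign on SRT2104 and 99.3% on CR, and of the 3475 called for muscle 97.5% and 98.6%. On SRT2104, all 5 liver arrays lay above all 5 muscle arrays for 91.2% of the former, and the reverse held for 86.1% of the latter, against 33.9% and 34.4% of all probes tested. On CR these shares were 84.8% and 70.3%, against 28.0% and 27.7% of all probes tested. The median difference of the probes called for liver was 2.16 on SD, 2.00 on SRT2104 and 1.98 on CR, and of those called for muscle -1.85, -1.66 and -1.64.

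Detection in a single tissue repeated in smaller shares, and on SRT2104 the share moved with 1 array. On 1 SRT2104 muscle array 758 of the 1250 probes detected in liver and on no muscle array were detected, against 38 to 88 on the other 4. Ambp, for example, differed by 7.73 on SRT2104, by 9.35 on CR and by 10.60 on SD. With that array 345 of the 1250 probes (27.6%) again were detected in liver and on no muscle array on SRT2104, and without it 997 (79.8%). On CR the number was 894 (71.5%). One CR muscle array detected 26.7% of all probes, against 39.7 to 41.8% on the other 4. Without it muscle calls on CR were free of overlap for 94.6%, and without the SRT2104 array above for 90.6% there. With fewer arrays, both freedom from overlap and detection in a single tissue are easier to meet. The shares of all probes tested were not computed without these arrays. Leaving out these arrays was chosen after seeing the data. Of the 1089 probes detected in muscle and on no liver array, 718 (65.9%) were so again on SRT2104 and 743 (68.2%) on CR, and of the 7933 detected in both, 91.9% and 94.4%.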

How the data were processed

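Liver and skeletal muscle RNA of the standard-diet mice was labelled as biotin-cRNA and read on Illumina MouseRef-8 v2 bead arrays. The deposited table holds the signal intensity of each probe, exported by the authors without normalization, and a detection p-value from the negative control beads. GenomeStudio 1.6.0 is named in the submitters' processing notes. The second deposited table holds scores, which the authors made as z-scores of log intensity within each array, and these served as an alternative. A signal column was tied to its group by its name, and 0 columns of per-sample values stayed unmapped.

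The 10 arrays were background-corrected and quantile-normalized together with neqc (offset 16) in limma 3.58.1 under R 4.3.3, so both tissues share one distribution of values. A linear model on tissue with empirical Bayes moderation was fitted to the 11738 probes tested, with Benjamini-Hochberg adjustment over all of them. A probe was called at an adjusted p under 0.05 and at least 1 log2 unit. Intervals are 95%. The fit was tested on simulated data. A gene stands for its brightest probe among those tested, and each of 23978 probes had 1 gene symbol in the platform annotation. Single values of arrays were compared by exact permutation over 252 arrangements. Figures were drawn with matplotlib 3.10.9 under Python 3.11.15.

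A set of genes to be named was formed by rule. It held the 10 with the largest difference in each direction among genes detected in both tissues. The same was done among those undetected in the other tissue. All tested genes of the isoenzyme pairs, the 4 with the largest difference in each list and called genes against its majority were added. The 10 nearest to equality, the 10 with the most opposed probes, Sirt1 and all members of lists of 8 or fewer completed it. Not all genes of this set are named in the text. Other genes given as examples, among them those that varied most within a tissue, were picked once their values were known. The members and lists were chosen with earlier results of these data known. Alternatives covered the background, scaling, deposited scores, detection limit, tests, replicate block, single arrays and the other diets.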

Additional observations from a re-analysis of the deposited data

Results flagged for a closer look

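Among 152 groups of 5 arrays, 16 held an array whose gap to its nearest neighbour took most of the group's range. Chance gives about 1 such group in 20, and no explanation was tested.

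In liver, the highest array of Acta1 stood at 7.592 against 4.713 for the next, that of Atp2a1 at 7.814 against 5.265 and that of Adipoq at 6.434 against 5.009, all 3 on the array whose column name begins with 2. The highest liver array of Ckm, again the one whose column name begins with 2, was at 5.39 against 4.645. That of Myf6 was at 5.022 against 4.833, and both genes were undetected in liver. Cox6a1 had a highest liver array at 14.19 against 13.92, and Ass1 at 14.76 against 14.29.

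In muscle, Acta1 had a lowest array at 15.46 against 15.66 and Atp2a1 at 15 against 15.33. The lowest muscle array of Pygl was at 5.969 against 7.174, that of Orm1 at 6.244 against 6.414 and that of Idh3a at 12.72 against 12.94. The highest muscle array of Fga was at 5.468 against 4.87 and that of Gys2 at 4.744 against 4.666, both undetected, and that of Idh3b at 9.006 against 8.873. The median unprocessed signal of the probes tested reached 415.5 on 1 muscle array, against 277.7 on the next.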

How the results depend on the processing

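Quantile normalization without background correction called 1991 probes for liver and 2175 for muscle, and the deposited z-scores as they are called 1964 for muscle. With only probes detected in both tissues tested, 1443, 2071 and, at the adjusted p alone in either direction, 6076 were called. Testing against 1 log2 unit (treat) called 4952 in either direction in place of 9661. Leaving out each array gave 3048 to 3101 probes for liver, 3429 to 3483 for muscle and 9444 to 9694 in either direction. The median over probes detected in both was -0.229 to -0.214. There were 14 isoform pairs and 39 list directions, as with all arrays. Detected in liver and on no muscle array were 1270 to 1438 probes, in muscle and on no liver array 1107 to 1204, and in both 7965 to 8083. With 1 array fewer the detection rule was looser, so these detection counts could only rise or stay. Leaving out the array that stood apart on each other diet left 6448 called probes in the same direction on SRT2104 (6448 with it) and 6521 on CR (6476 with it), an alternative chosen after seeing the data. Averaging the probes of a gene turned Asph to -1.57, Tpm3 to -2.56 and Tsc22d1 to -0.448. With a block for the leading number of the signal columns, 3071 probes were called for liver and 3478 for muscle, and with a block for the label's replicate number on rescaled z-scores 2536 and 3007. Arrays sharing a column number had correlated deviations of 0.367, 0.117, 0.274, 0.0939 and -0.0861, and 4 of the 5 numbers had their best match in themselves. For the label's replicate number they were 0.379, 0.142, 0.293, 0.152 and -0.128. In neither was every value over 0.1, so no pairing was assumed, which does not show that the mice differ. Of 243 genes set by rule to be named or printed by array, 215 kept their call and direction in all settings run. No called probe changed direction in any scaling or in any fit without 1 array, and 2 did so in the fit over 15 arrays per tissue. The number of list directions kept was 36 with arrays scaled to shared probes. Dim probes limit the comparison: signal near background gives only bounds.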

Other observations

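Metallothionein Mt1 and Ddit4, an inhibitor of mTORC1 signalling that glucocorticoids and fasting induce, were low on the arrays whose column names begin with 1 and 5 in both tissues. For Mt1 the liver arrays 1 and 5 gave 11.87 and 11.80 against 15.57, 15.59 and 15.73 on arrays 2, 3 and 4, and the muscle arrays 11.60 and 13.03 against 14.67, 14.84 and 14.67. For Ddit4 the values in liver were 7.85 and 9.03 against 11.06, 11.23 and 10.38, and in muscle 6.47 and 8.76 against 11.89, 12.07 and 11.94. Saa1, an acute phase protein, was lowest on liver array 1 only, at 6.5 against 10.08 to 11.67. The choice of these genes followed their values, and no source says whether a number marks the same mouse in both tissues.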
